A study of Mus musculus with 12 samples.

Results

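The data concern 10 neighbouring genes of mouse chromosome 2 in the left atrium (LA) of mice with Notch activation in cardiomyocytes. The genes are *Pdcl*, *Rc3h2*, *Zbtb6*, *Zbtb26*, *Rabgap1*, *Dennd1a*, *Psmb7*, *Rpl35*, *Arpc5l* and *Golga1*, which is 10 of the 54658 gene names in the count table. They were selected on their measured read counts, which were raised in iNICD over control libraries, so their levels in that comparison are a description, and counts of members past a threshold are given only beside the share of all genes. All 10 passed the filter on low counts with a count scaled to library depth (CPM) of more than 1 in each of the 12 libraries, and 13541 names passed in all. On GRCm38 the genes lie between positions 37350074 and 39065541, an interval of 1.72 Mb.

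Control mice carried *αMHC-rtTA* alone, a transactivator expressed in cardiomyocytes from the alpha myosin heavy chain promoter. iNICD mice carried *αMHC-rtTA* and *tetO_NICD*, so that doxycycline switches on the intracellular domain of Notch1 in those cells. Both groups were littermates of 2 to 3 months on a mixed genetic background and were fed doxycycline chow for 3 weeks without washout, the controls included. Each LA gave 1 library, from 4 females and 2 males among the controls and from 3 of each sex among the iNICD mice. The chromosomal position of the *tetO_NICD* transgene is not given in the sources used here, and the strain origin of chromosome 2 in each mouse was not analysed here.

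The genes encode proteins of basic cell upkeep rather than 1 pathway. Rab proteins are small GTPases that direct membrane traffic, and they are switched on by exchange factors and off by GTPase-activating proteins. Golgins are long proteins that catch vesicles at the Golgi, the Arp2/3 complex makes branched actin, the proteasome degrades proteins, the ribosome makes them and chaperonins fold them. BTB zinc finger proteins bind DNA, and roquins bind stem-loops in mRNAs and promote their decay. In Notch signalling the intracellular domain of the receptor enters the nucleus and acts through the DNA-binding protein RBPJ.

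The promoters are shown because the members were raised together in 1 stretch of DNA. RefSeq on GRCm38.p6 gave windows of 300 bases, from 250 before to 50 after the start, for 8 of the 10 genes, with 2 windows for *Rabgap1* and 9 in all. *Psmb7* and *Arpc5l* had no window. *Rabgap1* on the plus strand and *Zbtb26* on the minus strand start 113 bases apart and head away from each other, so the first sequence covers the start of both. *Golga1* had the highest count of CpG, and *Pdcl* the lowest GC content. The sequences run 5′ to 3′ on the strand of the named gene, with matches to the motifs described next in capitals.
Rabgap1 (chr2:37443035-37443334, plus strand): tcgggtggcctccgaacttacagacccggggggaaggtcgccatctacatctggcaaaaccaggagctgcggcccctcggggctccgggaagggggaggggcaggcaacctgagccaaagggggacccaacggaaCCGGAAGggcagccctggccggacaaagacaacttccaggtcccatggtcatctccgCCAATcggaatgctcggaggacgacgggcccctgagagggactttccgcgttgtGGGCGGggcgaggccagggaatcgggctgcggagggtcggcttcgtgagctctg
Golga1 (chr2:39065492-39065791, minus strand): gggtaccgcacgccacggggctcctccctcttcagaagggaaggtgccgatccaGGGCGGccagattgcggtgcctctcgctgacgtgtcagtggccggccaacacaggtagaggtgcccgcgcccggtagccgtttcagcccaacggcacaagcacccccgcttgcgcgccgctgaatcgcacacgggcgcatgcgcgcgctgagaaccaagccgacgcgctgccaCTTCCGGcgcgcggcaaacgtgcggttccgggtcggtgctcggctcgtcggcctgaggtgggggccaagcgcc
Pdcl (chr2:37359283-37359582, minus strand): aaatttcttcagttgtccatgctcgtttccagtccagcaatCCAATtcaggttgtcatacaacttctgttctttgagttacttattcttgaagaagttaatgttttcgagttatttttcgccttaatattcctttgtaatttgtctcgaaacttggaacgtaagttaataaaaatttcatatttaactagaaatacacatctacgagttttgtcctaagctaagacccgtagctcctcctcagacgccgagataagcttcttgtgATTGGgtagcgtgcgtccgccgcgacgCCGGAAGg

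Simple motifs, 6 in all, were searched on both strands of the windows. The RBPJ motif GTGGGAA was in 0 of the 9 member windows, compared with 6.06% of the 13211 windows of tested genes and 6.38% of all 32851 windows. The ETS motif CCGGAAG was in 6 of the 9 windows, compared with 16.4% of tested-gene windows and 8.86% of all windows. Because the windows of *Rabgap1* and *Zbtb26* overlap, their ETS match is 1 site counted in both, and the same holds for their GC box and CCAAT box in the counts that follow. The GC box GGGCGG was in 7 of 9 windows (61.2% of tested-gene windows, 35.7% of all), and the CCAAT box CCAAT was in 4 of 9 (37.1% and 37.4%). The E-box CACGTG was in 1 of 9 (9.78% and 7.15%), and the YY1 motif AAGATGGCG was in 0 of 9 (2.81% and 1.4%). GC content of the member windows ran from 40.0% to 72.0% with a median of 65.3%, against a median of 60.7% for tested genes. The observed over expected CpG ratio had a median of 0.854 in members and 0.738 in tested genes. These matches are letters in a window and were not measured as bound sites.

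The libraries had between 21432632 and 27182038 reads counted on genes, with similar ranges in both groups, and a member had between 85 and 3357 reads in a library. Control replicate 5 lay far from the other controls in several genes, and it also differed across the library. Its scaling factor was the lowest, 0.863, beside 0.974 to 1.06 in the other libraries. In comparisons of counts between 2 controls, pairs with it had a chi-square per gene of 97.7 to 198, beside 16.7 to 82.8 in pairs without it. *Notch1*, part of which the transgene encodes, had 108 to 131 normalized CPM in control libraries and 2969 to 4069 in iNICD libraries, as the labels state. Of 5 atrial cardiomyocyte markers, 4 were lower in iNICD, and the summed level of the 5 was 67144 to 77080 CPM in control (to 71920 without control replicate 5) and 42565 to 51036 in iNICD libraries. Most of that difference was in *Nppa*, which encodes atrial natriuretic peptide, with means of 24172 and 4811 CPM. *Myh6*, the most abundant of the 5, did not pass, with means of 33574 and 32823. The lists for ventricular cardiomyocytes, fibroblasts, endothelium, smooth muscle, leukocytes, mesothelium, adipocytes and red blood cells had no called gene, and their summed levels overlapped between the groups. The part of the atrial marker difference in the member levels was not tested, and in whole atria fewer cells of a type and less RNA per cell cannot be told apart.

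Every member was higher in each of the 6 iNICD libraries than in any of the 6 controls. Fold changes ran from 1.32 for *Zbtb26* to 1.64 for *Rabgap1*, with a median of 1.47. The median log2 fold change was 0.56, compared with -0.01 over all tested genes. All 10 passed an adjusted p-value of 0.05 in edgeR's quasi-likelihood test, as did 2.78% of all tested genes in the higher direction and 1.34% in the lower. All 10 also had no overlap between groups in the higher direction, as did 2.58% of tested genes. Since this contrast chose the members, nothing is read from these counts.

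Against 1.5-fold, 4 members lay above and 6 below, while 3.70% of all tested genes reached 1.5-fold. *Dennd1a* at 1.54-fold was the member just inside, and *Pdcl* at 1.49-fold the member just outside. The 95% interval of the fold change began below 1.5 in all 10 members, and it reached above 1.5 in 9 of them. Only *Zbtb26*, with an interval up to 1.49, lay wholly below 1.5-fold. For the other 9, which side of 1.5-fold the change falls on is within the error of the estimate.

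**Figure D1:**
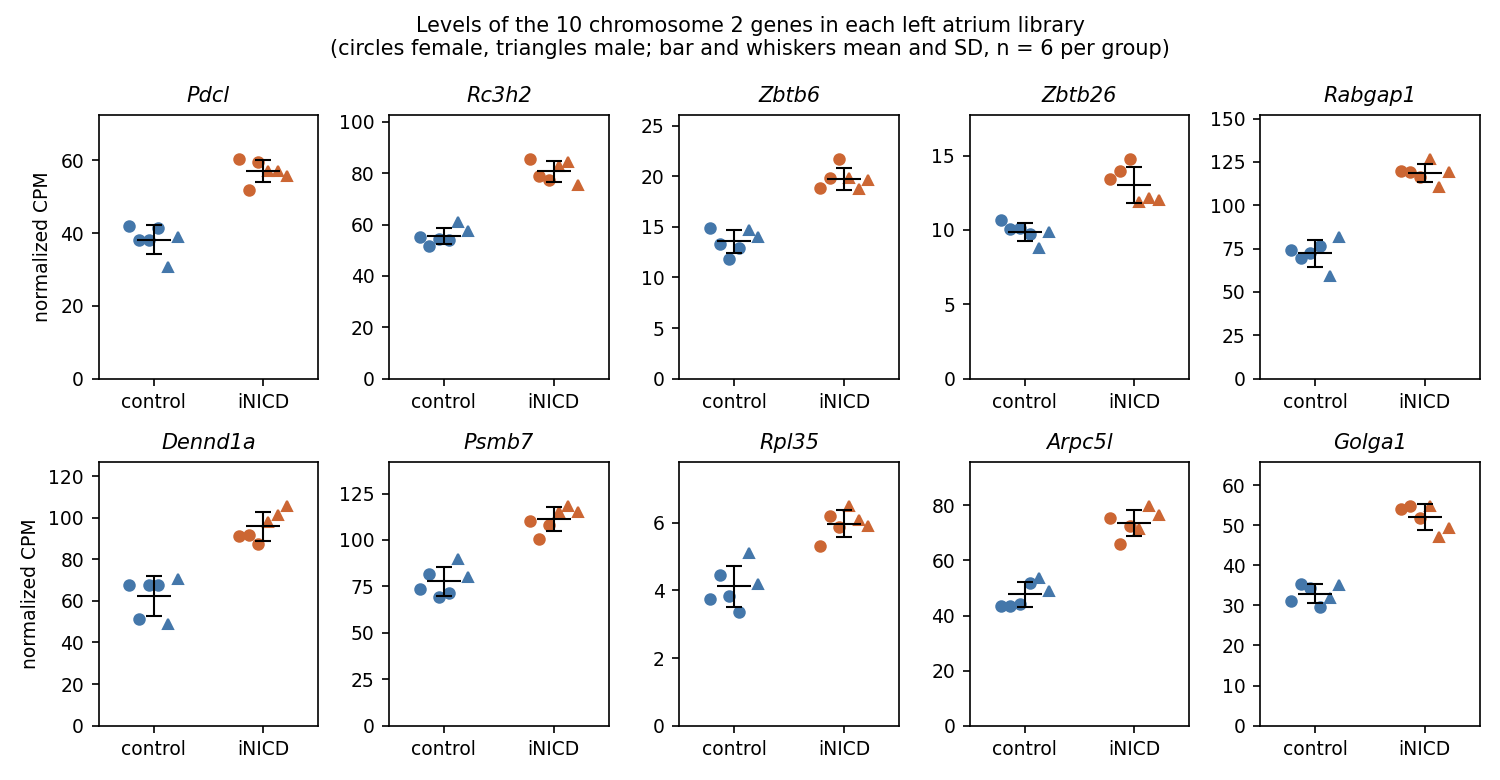
Normalized CPM (vertical axes, from 0) of the 10 members in every LA library, with 6 control and 6 iNICD libraries per panel, circles for females and triangles for males, and the bar and whiskers for mean and SD. In each panel the lowest iNICD point lies above the highest control point; for *Rabgap1* these are 110 and 81.8.

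The members that act in membrane traffic, 3 in number, all had estimates above 1.5-fold. Here and in the groups below, the intervals of all members but *Zbtb26* spanned 1.5, so no pattern by function is read from these sides. *Rabgap1*, which encodes a GTPase-activating protein for Rab proteins, had 58.9, 73.3 and 81.8 normalized CPM as the lowest, median and highest control and 110, 119 and 127 in iNICD. Its mean rose from 72.2 ± 7.69 to 119 ± 5.41 (SD, n = 6 per group), a fold change of 1.64 (95% interval 1.47 to 1.83). The gap between the highest control and the lowest iNICD library was wider than the whole range of controls. *Golga1*, which encodes golgin-97 of the trans-Golgi network, had 29.7, 33.1 and 35.3 in control and 47.0, 53.0 and 54.8 in iNICD libraries. Its means were 32.9 ± 2.32 and 52.0 ± 3.20, a fold change of 1.58 (1.43 to 1.74). *Dennd1a*, which encodes an exchange factor for Rab35 on endocytic membranes, was the member whose controls varied most, with a coefficient of variation of 15.5%. Its lowest, median and highest levels were 48.7, 67.5 and 70.7 in control and 87.3, 94.8 and 106 in iNICD libraries. The means were 62.2 ± 9.66 and 95.9 ± 6.94, a fold change of 1.54 (1.33 to 1.79).

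*Arpc5l*, the fourth member above 1.5-fold, encodes an alternative form of the smallest subunit of the Arp2/3 complex. Control libraries had 43.4, 46.6 and 53.8 normalized CPM as lowest, median and highest, and iNICD libraries 66.1, 73.9 and 79.8. The means were 47.6 ± 4.55 and 73.6 ± 4.76, a fold change of 1.55 (1.39 to 1.72).

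The 3 members that act in protein synthesis, folding and breakdown were all below 1.5-fold. *Pdcl*, whose protein works with the CCT chaperonin in assembling G protein beta and gamma subunits, had 30.8, 38.5 and 41.9 normalized CPM in control and 52.0, 57.1 and 60.4 in iNICD libraries (lowest, median and highest). Its means were 38.2 ± 4.00 and 57.0 ± 2.99, a fold change of 1.49 (1.33 to 1.67). The lowest control was replicate 5, and the other 5 controls lay within 38.1 to 41.9. *Psmb7*, which encodes the catalytic proteasome subunit with trypsin-like activity, had 69.5, 76.8 and 89.8 in control and 101, 113 and 118 in iNICD libraries. Its means were 77.7 ± 7.61 and 111 ± 6.40, a fold change of 1.43 (1.29 to 1.59). *Rpl35*, which encodes a protein of the large ribosomal subunit, was the least abundant member by read count, with 3.35, 4.02 and 5.09 in control and 5.31, 5.99 and 6.50 in iNICD libraries. Its means were 4.12 ± 0.610 and 5.98 ± 0.400, a fold change of 1.45 (1.22 to 1.73), and its highest control and lowest iNICD library were almost level.

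The *Rpl35* values need care. It passed the threshold in 18 of the 24 alternative settings described below. Of its exon length, 66.2% is shared with *Wdr38* on the opposite strand, and although the study's methods call the reads stranded, the strand setting of the counting is not given in the sources used here. Of its windows of 50 bases, the read length, 30.2% occur also in transcripts of 9 other genes, 7 of them pseudogenes. Such reads could be dropped, since a counting route in the study's methods kept only reads with a unique alignment. Per kilobase of exon its control level was 3.32 CPM, against a median of 8.81 for 42 other large-subunit genes, of which 11 were lower.

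The 3 members that regulate genes or mRNAs were all below 1.5-fold. *Rc3h2* encodes Roquin-2, an RNA-binding ubiquitin ligase that promotes mRNA decay. It had 51.5, 54.8 and 60.9 normalized CPM in control and 75.3, 80.9 and 85.6 in iNICD libraries, and the smallest standard error of log2 fold change among the members, 0.06. Its means were 55.6 ± 3.24 and 80.7 ± 4.15, a fold change of 1.45 (1.34 to 1.58). *Zbtb6*, a BTB zinc finger gene, had 11.8, 13.6 and 14.9 in control and 18.8, 19.7 and 21.7 in iNICD libraries. Its means were 13.6 ± 1.15 and 19.8 ± 1.08, a fold change of 1.46 (1.31 to 1.62). *Zbtb26*, its neighbour of the same family, had 8.78, 9.94 and 10.7 in control and 11.9, 12.8 and 14.8 in iNICD libraries. Its means were 9.87 ± 0.623 and 13.0 ± 1.21, a fold change of 1.32 (1.17 to 1.49). The pair share 449 exon bases on the same strand, 8.84% of *Zbtb6* and 4.73% of *Zbtb26*. Reads on those bases fit both genes and could be lost to both, since a counting route in the study's methods kept only unambiguous reads.

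Among the other members, *Psmb7* shares 11.8% of its exon bases with *Nek6* on the opposite strand, while the shared part was 5% or less in *Rabgap1*, *Dennd1a* and *Arpc5l*, and *Pdcl*, *Rc3h2* and *Golga1* share none. Per kilobase of exon the control levels of the members ran from 1.04 CPM for *Zbtb26* to 22.7 for *Psmb7*, so the highest and the lowest member in level were both among the smaller fold changes.

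Among the members, control replicate 5 lay far from the other controls for *Pdcl*. It was the lowest control for *Pdcl*, *Zbtb26*, *Rabgap1* and *Dennd1a* and the highest for *Rc3h2*, *Psmb7*, *Rpl35* and *Arpc5l*. Without it, fold changes were 1.43 for *Pdcl*, 1.58 for *Rabgap1*, 1.48 for *Dennd1a*, 1.59 for *Arpc5l* and 1.52 for *Rpl35*, so *Dennd1a* fell below 1.5-fold and *Rpl35* came above it.

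In chromosomal order the raised genes were not a run without gaps. The interval has 53 annotated names, of which 15 were tested, the 10 members and 5 others. Of those 5, 0 passed the threshold in edgeR's quasi-likelihood test, where *Strbp*, *Nr6a1* and *Olfml2a* had an unadjusted p under 0.05. *Olfml2a* passed in edgeR's exact test and in the quasi-likelihood test without the filter on low counts, and DESeq2 called *Nr6a1* and *Olfml2a*. *Strbp*, which overlaps *Rabgap1* on the opposite strand, with 118 shared exon bases, encodes an RNA-binding protein and went from 34.2 ± 6.36 to 40.8 ± 4.01 normalized CPM, a fold change of 1.19 (1.01 to 1.41). *Crb2*, a cell polarity gene, had a fold change of 1.04 (0.770 to 1.396), and *Nek6*, a mitotic kinase gene that borders *Psmb7*, one of 0.994 (0.749 to 1.32). *Nr6a1*, a nuclear receptor gene, had 1.46 (1.14 to 1.88) with an edgeR adjusted p of 0.093. *Olfml2a*, which encodes a secreted protein, had the highest fold change of the interval at 1.81 (1.29 to 2.54), with an edgeR adjusted p of 0.054 and every iNICD library above every control. Its controls ranged from 8.73 in replicate 5 to 31.1, so its error was wide. Genes with fold changes near 1, although with wide intervals, thus lay between members. Without control replicate 5, *Olfml2a* (1.61-fold) and *Strbp* (1.28-fold) passed the threshold.

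**Figure D2:**
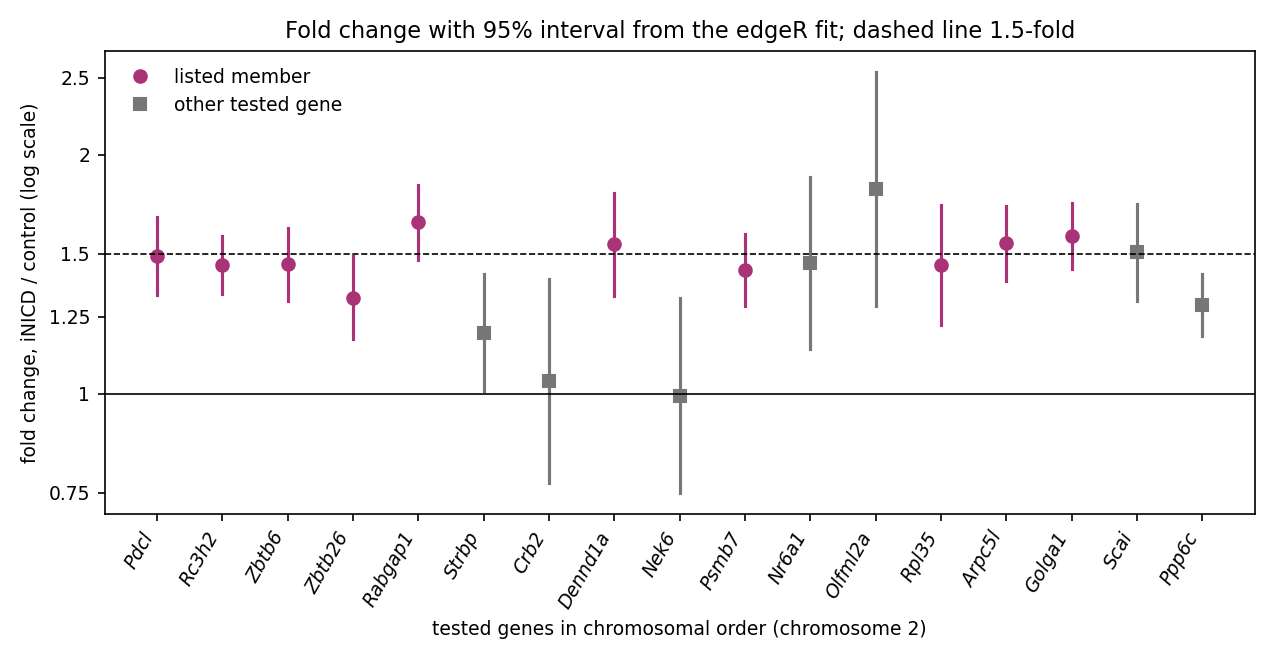
Fold change of iNICD over control (vertical axis, log scale) for tested genes of the interval and within 1 Mb of it, in order along chromosome 2 (horizontal axis), with 95% intervals from edgeR, members as circles, other genes as squares and a dashed line at 1.5-fold. The members lie between 1.32 and 1.64, while *Crb2* and *Nek6*, between them, sit at 1.04 and 0.994.

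Raised levels were also found past *Golga1*. Only 2 tested genes lay within 1 Mb of the interval, both on the *Golga1* side, and both passed the threshold with every iNICD library above every control. *Scai*, a transcriptional cofactor gene, went from 15.4 ± 1.31 to 23.2 ± 3.03 normalized CPM, a fold change of 1.51 (1.31 to 1.73, edgeR adjusted p = 0.0027). *Ppp6c*, which encodes the catalytic subunit of protein phosphatase 6, went from 81.2 ± 6.23 to 105 ± 5.44, a fold change of 1.29 (1.18 to 1.42, edgeR adjusted p = 0.0034). These genes were not members, but the interval was known from earlier results of these data, so they are no independent support. Of the 6 tested genes next before the interval, *Ndufa8*, which encodes a subunit of respiratory complex I, passed, with a fold change of 1.41 (1.27 to 1.56, edgeR adjusted p = 8.8e-04). The other 5, *Ptgs1*, *Mrrf*, *Rbm18*, *Lhx6* and *Ttll11*, had fold changes up to 1.32 and did not pass. On the far side *Gm13456* (0.843), *Arhgap15* (1.19) and *Gtdc1* (0.913) did not pass, and *Lrp1b* passed with 3.72-fold (2.28 to 6.06, edgeR adjusted p = 0.0050) at a control level of 0.945 CPM.

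By distance, the bin from 1 Mb before to 1 Mb after the middle of the interval held 16 tested genes, 10 of them the selected members, with a median log2 fold change of 0.54 and 15 above 0. The bin from 3 to 1 Mb before it held 11, with a median of 0.29, 10 above 0 and 2 called higher. Bins farther before, out to 15 Mb, had medians from -0.06 to 0.11. Bins after it held few genes, 1 to 11 each, with medians from -0.08 to 0.06 apart from 1.89 at 3 to 5 Mb, where *Lrp1b* was the only gene, and 0.53 at 7 to 9 Mb, with 2 genes. The 1033 tested genes elsewhere on chromosome 2 had a median of -0.01, and 3.29% of them were called higher. The native *Notch1* gene lies on the same chromosome, from 26457903 to 26516663, 10.8 Mb before the interval.

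**Figure D3:**
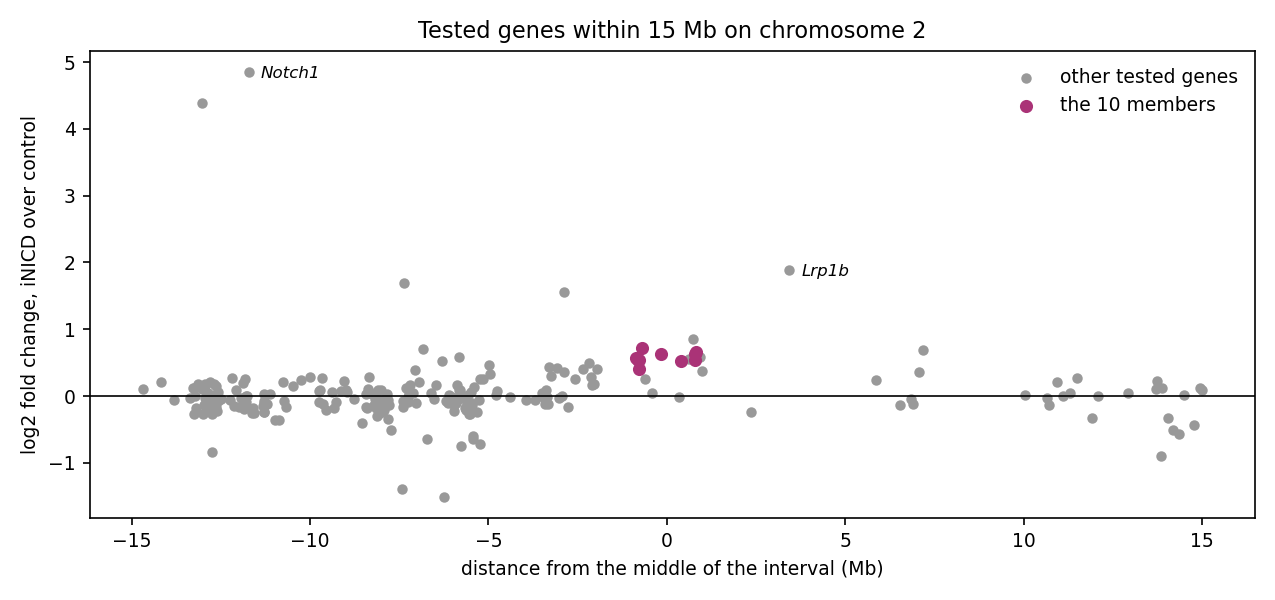
Log2 fold change of iNICD over control (vertical axis) of tested genes within 15 Mb of the middle of the interval (horizontal axis, distance in Mb), with the 10 members in colour and other genes in grey. The members form a band between 0.40 and 0.72, and *Notch1* at 4.85 and *Nrarp*, a Notch target gene, at 4.39 stand far above the other genes on the left. *Notch1* is drawn at its native position, but reads of the *tetO_NICD* transgene, whose position is not given, can count as *Notch1*.

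The close relatives and partners of the members, listed by function, included none that was called higher in edgeR. Of 194 listed genes 180 were tested. At an edgeR adjusted p under 0.05, 0 were higher, beside 2.78% of all tested genes, and 3 (1.67%) were lower, beside 1.34%. At an unadjusted p under 0.05 in either direction there were 33 (18.3%), beside 17.4% of all tested genes. The pooled lower share and the pooled unadjusted share were thus near the background. The lists differed in the unadjusted share, from 0 of 16 proteasome and 0 of 9 Arp2/3 genes to 13 of 42 large ribosomal genes. All 13 were below 0, and of the 42 large ribosomal genes 7 were above 0. Of all 180, DESeq2 called 11 in either direction. The median log2 fold change of the 180 was -0.07, with 60 above 0, beside 48.7% of all tested genes. The 9 tested phosducin-like and CCT chaperonin genes, partners of *Pdcl*, lay between -0.32 and -0.13 on the log2 scale. The 9 other Arp2/3 genes had a median of -0.07, the 11 genes of the golgin list, *Arl1* included, -0.10, the 16 other proteasome core genes -0.05, the 42 large ribosomal genes -0.14 and the 11 roquin and decay genes -0.01. The 16 DENN genes, relatives of *Dennd1a*, had the highest median, 0.10, with 11 above 0. The 37 tested names that begin with Zbtb, 2 of which (*Zbtb11os1* and *Zbtb8os*) are named for the opposite strand of a ZBTB gene, had a median of 0.00, and the 29 TBC RabGAP genes one of -0.05.

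The 3 called genes, a share near that of all tested genes, were lower. Their calls were not stable, since only 1 partner gene passed in 7 of the 12 fits without 1 library (control replicate 1, 2, 4 or 6, or iNICD replicate 3, 4 or 5), and 1 without the filter on low counts. *Tbc1d16*, a RabGAP gene, went from 189 ± 26.9 to 134 ± 15.4 normalized CPM, and its log2 fold change was -0.50 (standard error 0.10, edgeR adjusted p = 0.016). *Tbc1d10b*, of the same family, had -0.32 (standard error 0.08, edgeR adjusted p = 0.043), and *Zbtb42* had -0.52 (standard error 0.13, edgeR adjusted p = 0.045). For 7 of the members a closest relative or partner was named, and none of these passed. *Arpc5*, the other form of the subunit that *Arpc5l* encodes, was at 40.2 in control and 38.2 normalized CPM in iNICD, a log2 fold change of -0.07 (standard error 0.14). *Rc3h1*, which encodes Roquin-1, had -0.24 (standard error 0.09), and *Rabgap1l* had -0.14 (standard error 0.11). *Dennd1b* had 0.18 (standard error 0.09), *Pdcl3* had -0.20 (standard error 0.17) and *Psmb10*, the immunoproteasome counterpart of *Psmb7*, had 0.13 (standard error 0.13). *Gcc1*, a golgin of the same GRIP type as *Golga1*, had 0.03 (standard error 0.07), and *Arl1*, the GTPase that recruits such golgins, had -0.17 (standard error 0.06).

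**Figure D4:**
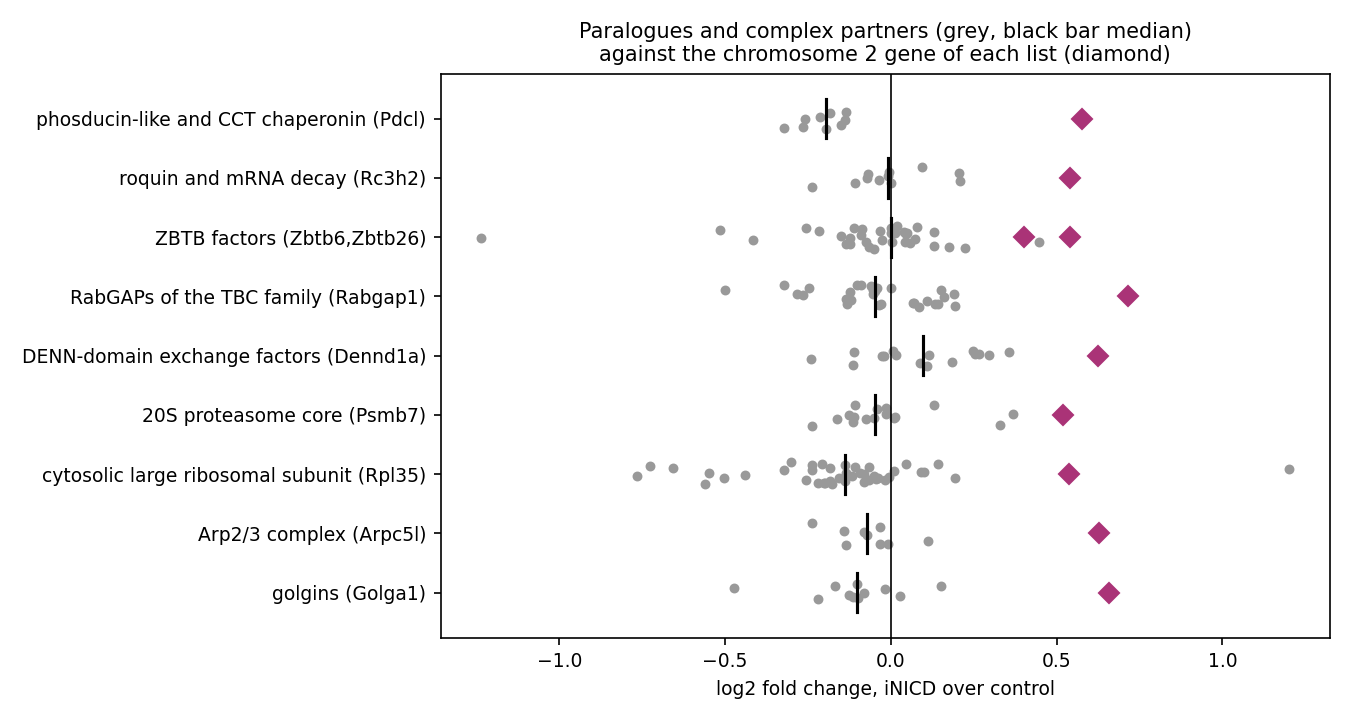
Log2 fold change of iNICD over control (horizontal axis) of the tested genes in each functional list (rows, grey points, black bar for the median) and of the member that belongs with the list (diamonds). The list medians lie between -0.20 and 0.10, and the diamonds between 0.40 and 0.72.

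Sex was not used to choose the members and could be tested. With group in the model, edgeR called 39 genes different between males and females, 0.288% of those tested, and 0 members. At an unadjusted p under 0.05 there were 2 of 10 members, beside 1883 of 13541 tested genes (13.9%). *Psmb7* was higher in males by 0.16 on the log2 scale (95% interval 0.04 to 0.28, edgeR adjusted p = 0.24), and *Zbtb26* had -0.18 (-0.33 to -0.03, edgeR adjusted p = 0.27). DESeq2 called 495 genes and 0 members. For the difference of the iNICD effect between the sexes, edgeR called 0 genes (0.00%, with 501 at an unadjusted p under 0.05) and 0 members, with 0 members under the unadjusted threshold, and DESeq2 called 1 gene and 0 members. Fold changes ran from 1.39 (*Zbtb26*) to 1.64 (*Golga1*) in females and from 1.29 (*Zbtb26*) to 1.70 (*Dennd1a*) in males. The widest of the interaction intervals belonged to *Rpl35*, from -0.68 to 0.31 on the log2 scale, and for *Dennd1a* it ran from -0.19 to 0.71, so differences of that size between sexes could not be seen with 2 male controls. Control replicate 5 was 1 of those 2, so the male fold changes lean on it. For *Dennd1a* it had 48.7 normalized CPM, and the other male control, replicate 6, had 70.7.

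Within the groups the members had correlations of both signs. After removal of group means, the correlation of a member with the mean of the other 9 ran from -0.44 (*Rpl35*) to 0.21 (*Rabgap1*), with a median of -0.12 over 12 libraries that share depth and normalization. Of the 45 pairs of members 20 had a correlation above 0, with a median of -0.07. Without control replicate 5, at the same scaling factors, 25 pairs were above 0 with a median of 0.08, and the correlations of single members ran from -0.42 (*Zbtb26*) to 0.54 (*Rabgap1*), so 1 library set the sign of that median. The median of the 10 correlations was 0.13 with upper-quartile scaling and -0.50 without control replicate 6, and -0.09 without control replicate 5, with scaling factors computed anew.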

How the data were processed

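RNA from 12 left atria was depleted of ribosomal RNA and sequenced, and the authors deposited read counts per gene name, raw and without normalization, with a length in bases per name (other), used for levels per kilobase. The submitters' processing notes name cutadapt, STAR 2.4.2a, Subread featureCounts and mm10; the study's methods also describe TopHat2 with HTSeq, and the table does not say which made it. The study's methods call the reads stranded, and the strand setting of the counting is not given in the sources used here.

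Names above 1 CPM in 6 or more libraries were compared with edgeR 4.0.16 (R 4.3.3, TMM factors 0.863 to 1.06, quasi-likelihood test, two-sided, Benjamini-Hochberg over 13541 genes, threshold 0.05). Normalized CPM are counts over TMM-adjusted totals. The script was tested on simulated data. DESeq2 1.42.0, other scalings and filters, sex, replicate blocks, single sexes and omission of each library were the alternatives. Positions and overlaps are from GENCODE on GRCm38, promoters from RefSeq (GRCm38.p6). Depth was 21432632 to 27182038 reads per library. No libraries were copies.

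The members and lists were chosen with earlier results of these data known. Named genes were the members, tested genes of the interval and its flanks, the 5 genes most alike within groups, a closest relative or partner for 7 members, and called genes of the lists.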

Additional observations from a re-analysis of the deposited data

Results flagged for a closer look

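Single libraries that stood far from the other 5 of their group were looked for in 64 groups of 6, and 10 were found. Of these, 3 were in genes chosen for their likeness to the members within groups, a choice that favours libraries far from the rest; without those genes 7 were found in 54 groups, where chance gives about 1 in 20, or 2.7. Of the 10, 5 were in control replicate 5, and 2 of the 20 groups of members had one. *Pdcl* was at 30.8 normalized CPM in control replicate 5, with the other controls from 38.1 to 41.9, and *Zbtb6* was at 21.7 in iNICD replicate 3, with the others from 18.8 to 19.9. In the same interval, control replicate 5 was low for *Crb2*, at 7.19 against 14.4 to 15.3, and for *Olfml2a*, at 8.73 against 23.5 to 31.1. Among relatives of the members, control replicate 5 was high for *Pdcl3*, at 95.9 against 46.0 to 62.9, and for *Arl1*, at 95.4 against 76.2 to 83.1. *Psmb10* was at 34.9 in iNICD replicate 3, against 22.6 to 27.2.

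Control replicate 6 was high for 3 genes named for their likeness to the members within groups. It had 8.45 normalized CPM of *Rn7sk* against 1.10 to 2.31 in the other controls, 9.93 of *Ccdc85a* against 5.12 to 6.68, and 23.2 of *Gm15564* against 7.81 to 12.7. The causes of these values were not tested.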

How the results depend on the processing

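Over 24 alternatives, *Rabgap1* stayed at 1.5-fold or more in 24, *Arpc5l* and *Golga1* in 23, *Dennd1a* in 21, *Pdcl* in 5, *Rpl35* in 2, *Rc3h2* and *Zbtb6* in 1, and *Psmb7* and *Zbtb26* in 0. *Rpl35* passed the threshold in 18 and the other 9 members in 23, the exception being males only; *Rpl35* also missed it without control replicate 1, without iNICD replicate 4, without the filter on low counts, with females only and with the title numbers as a block. With males only, 2 controls against 3 iNICD, 0 members passed, their median log2 fold change was 0.49, 0 neighbours and 0 partner genes passed, and 8 of all genes were higher. Other tested genes within 1 Mb of the interval passed in 2 cases, but in 3 with edgeR's exact test and without the filter on low counts, and in 4 with DESeq2, with females only and without control replicate 5. Partner genes passed in 3 cases, but in 11 with DESeq2, in 1 without the filter on low counts and in 1 to 5 with single libraries left out (1 without control replicate 1, 2, 4 or 6 or iNICD replicate 3, 4 or 5, and 5 without control replicate 5). Genes higher overall numbered 615 with DESeq2. The median correlation of members within groups, -0.12, was 0.13 with upper-quartile scaling, and ran from -0.50 (without control replicate 6) to -0.080 with single libraries left out. Why these values moved was not tested.

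Control and iNICD libraries share replicate numbers, and whether same-numbered libraries are paired is not settled by these values. Their deviations had correlations from -0.15 to 0.37 by the title numbers and from -0.11 to 0.37 by the description's numbers. With the title numbers as a block, 9 members passed and 332 genes were higher. With the description's numbers as a block, 10 members passed, 1 partner gene passed and 285 genes were higher. Each control correlated best with its own number in 3 of 6 cases, or 2 of 6 by the description's numbers. With 6 libraries a group, fold changes near 1.5 are known only to about the width of their intervals.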

Other observations

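The 5 genes outside the interval whose levels within groups were most like the mean of the members were *Rn7sk* (Pearson r = 0.95), *Acsf3* (0.90), *Ccdc90b* (0.90), *Ccdc85a* (0.89) and *Gm15564* (0.85), chosen among 13450 candidates and over 12 libraries that share depth and normalization. None of the 5 passed the threshold between iNICD and control in edgeR, with adjusted p-values from 0.47 to 0.92. Control replicate 6 had the highest mean deviation of the members, 0.08 on the log2 scale, and stood apart in *Rn7sk*, *Ccdc85a* and *Gm15564*. Without it r was 0.85 for *Rn7sk*, 0.88 for *Acsf3*, 0.71 for *Ccdc90b*, 0.72 for *Ccdc85a* and 0.67 for *Gm15564*.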
